A study of Rattus norvegicus with 18 samples.

Results

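The genes described here code for subunits of the nuclear RNA polymerases I, II and III (Pol I, Pol II and Pol III) in rat fibroblasts with and without MYC. Members were all symbols of the deposited expression table that begin with Polr1, Polr2 or Polr3 followed by a letter, 24 of 13188 genes. By symbol they were 4 Polr1, 11 Polr2 and 9 Polr3 genes. By enzyme, 3 belong to Pol I only (Polr1a, Polr1b, Polr1e), 1 to Pol I and Pol III (Polr1c), 4 to all 3 enzymes (Polr2e, Polr2f, Polr2k, Polr2l), 6 to Pol II only (Polr2b, Polr2c, Polr2d, Polr2g, Polr2i, Polr2j) and 9 to Pol III only (among them Polr3b, Polr3c, Polr3d, Polr3e, Polr3f, Polr3g, Polr3gl and Polr3k), and 1 (Polr2m) codes for a Pol II-associated factor. Polr2a, Polr2h and Polr3a, which code for further subunits, were not analysed here.

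Sequencing covered 18 cultures of the HO15.19 line, Rat1 fibroblasts in which both copies of endogenous myc were disrupted (myc-/-), in 6 groups of 3. All groups share the myc-/- background, growth in serum (10% per the labels, whereas the methods give another percentage) and stable infection with a virus, and according to the methods the control cells carried a vector and the others human MYC. The groups were myc-/- cells without transfection, myc-/- cells given a control siRNA (siCtrl), myc-/- cells with human MYC (myc-/- + MYC) without transfection, and myc-/- + MYC cells given siCtrl or an siRNA against the aryl hydrocarbon receptor, siAHR-2 or siAHR-5. All siRNAs were used at 40 nM for 48 h. The labels do not say whether the 3 cultures of a group were grown separately, so the p-values measure only the spread between these samples, which may be technical.

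The deposited log2 values came on different scales in a 6-library set (myc-/- + MYC with its control myc-/- siCtrl) and in a 12-library set (the siCtrl, siAHR-2 and siAHR-5 groups of myc-/- + MYC, and untransfected myc-/- cells), and the leading principal component carried 74.7% of the variance and separated them. Groups were compared within a set, where MYC and the transfection label change together and cannot be told apart. Read depth is unknown. The rat Myc row was lower in the libraries labelled as holding human MYC, with a log2FC of -1.26 in the 6-library set and -2.68 in the 12-library set. Whether reads of the introduced human gene or of the disrupted rat alleles fall in this row was not tested, so it is not used as a check of the MYC labels, and directions below are those of the libraries as labelled. Ahr was higher in the libraries labelled MYC, with a log2FC of 0.52 in the 6-library set (adjusted p = 8.33e-07, limma, below the fold cutoff of 1.5) and 1.40 in the 12-library set (adjusted p = 4.42e-05, limma). It was lower with both siRNAs, with a log2FC of -1.29 (siAHR-2) and -1.39 (siAHR-5). Of 8 fibroblast markers, Vim, Fn1, Col1a1, Col3a1, S100a4 and Pdgfrb were above the table's median of 11.4 in every library. Thy1 ranged from 11.34 to 13.92, on both sides of that median, whereas Col1a2 stayed between 3.64 and 4.13. The table's median pools both sets, whose scales differ, and the markers were not compared with the median of each library. The epithelial marker Epcam was at most 2.42 and the leukocyte marker Ptprc at most 4.65, whereas Krt8 ranged from 6.02 to 9.05, Cd3e from 6.63 to 9.39 and Cd68 from 6.76 to 7.55. The summed fibroblast markers were lower in the libraries labelled MYC, 19.87 to 19.95 against 20.80 to 20.82 in the 6-library set and 20.21 to 20.24 against 21.95 to 22.18 in the 12-library set. The sum of 3 epithelial markers was higher, 7.87 to 7.97 against 6.43 to 6.55 and 8.75 to 9.09 against 7.73 to 7.89, and that of 3 leukocyte markers was lower, 8.36 to 8.50 against 9.61 to 9.72 and 7.93 to 8.11 against 8.47 to 8.56 (log2 of the sum). The sum of 3 endothelial markers was lower in the 6-library set, 7.66 to 7.67 against 7.80 to 7.93, and overlapped in the 12-library set, 7.68 to 7.75 against 7.70 to 7.99. In each set 4 of the 8 fibroblast markers were called lower (1 called higher in the 6-library set and 0 in the 12-library set), 1 of 3 epithelial markers was called higher (Krt8, log2FC 1.70 and 1.17) and 1 of 3 leukocyte markers was called lower (Cd3e, -2.09 and -1.13), by the cutoffs given below. The median log2FC in the 6-library and 12-library sets was 0.00 and 0.01 for the 3 epithelial markers and -0.15 and -0.04 for the 3 leukocyte markers. By sign, 3 of the 8 fibroblast markers were above 0 in the 6-library set and 0 in the 12-library set. The part of these shifts in the results for the polymerase genes was not tested.

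Pol I transcribes the large ribosomal RNA precursor in the nucleolus, Pol II transcribes messenger RNAs and many small RNAs, and Pol III transcribes tRNAs, 5S ribosomal RNA and other short RNAs. Each enzyme has a pair of large catalytic subunits, an assembly platform, a stalk and a set of small subunits that all 3 share. MYC is a transcription factor that binds DNA as a dimer with MAX, with a preference for the E-box CACGTG, and is known for raising the output of ribosome and tRNA production in growing cells. In bulk libraries such as these, fewer cells of a type and less RNA per cell cannot be told apart.

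Most polymerase genes had a log2FC above 0 in the libraries labelled MYC, 19 of 24 in each set. Of all 13188 genes, 6441 were above 0 in the 6-library set and 6334 in the 12-library set. A gene was called when its limma fold change reached 1.5 in either direction (0.585 on the log2 scale) with a Benjamini-Hochberg adjusted p over all genes of at most 0.01. SE is the standard error of the log2FC. In the 6-library set, 6 of the 24 members were called higher (Polr1b, Polr1e, Polr2c, Polr2e, Polr3c and Polr3g) and 1 lower (Polr2b), beside 12.5% of all genes called higher and 14.3% called lower. In the 12-library set, 9 members were called higher (Polr1b, Polr1c, Polr1e, Polr2e, Polr2k, Polr3c, Polr3f, Polr3g and Polr3gl) and 0 lower, beside 10.8% of all genes higher and 14.7% lower. The median log2FC of the 24 members was 0.29 in the 6-library set and 0.49 in the 12-library set, and that of all genes was -0.00 in both. Of the 24, 18 had a log2FC above 0 in both sets, 4 were below 0 in both (Polr2b, Polr2g, Polr2l and Polr2m) and 2 had opposite signs as deposited (Polr2i and Polr3e). Called in both sets in the same direction were 5 members, Polr1b, Polr1e, Polr2e, Polr3c and Polr3g. The share of all genes called in the same direction in both sets was not counted, so this number has no background beside it. With an adjusted p below 0.05 and no fold cutoff, 18 members were higher and 4 lower in the 6-library set (37.3% and 39% of all genes), and 16 were higher and 4 lower in the 12-library set (31.6% and 33.1%).

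**Figure D1:**
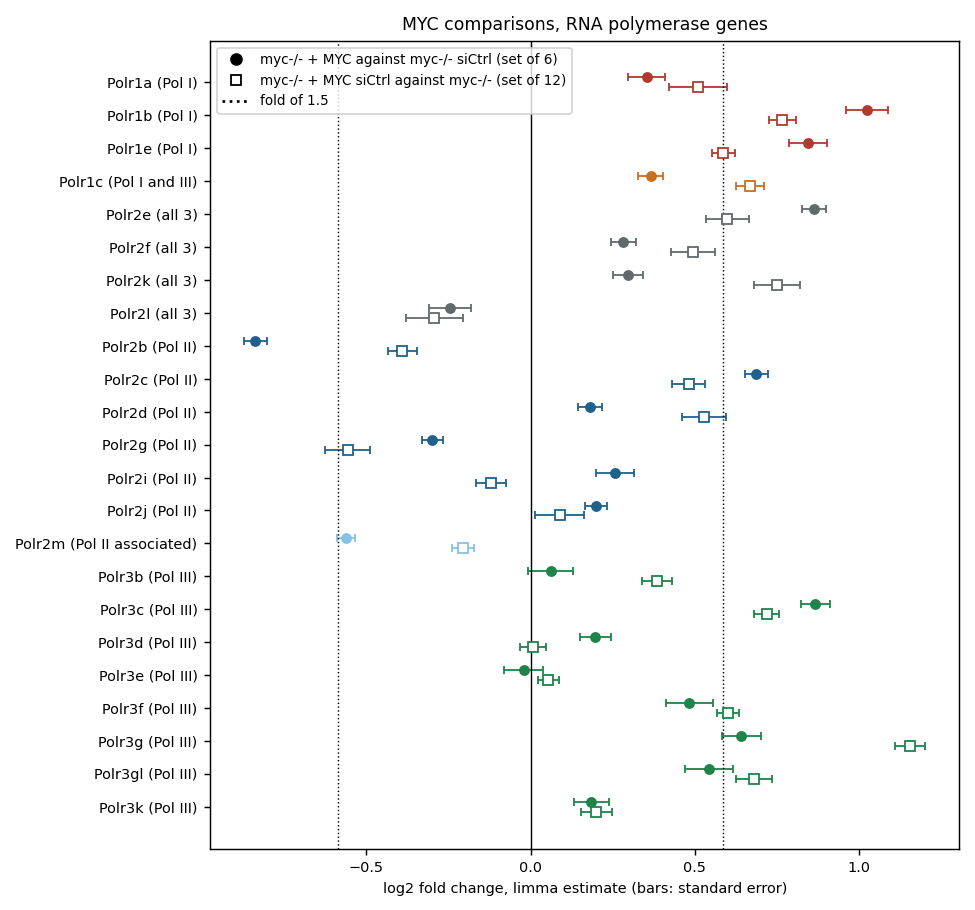
Limma log2 fold change (horizontal axis, bars are standard errors) of the polymerase genes named in the text for myc-/- + MYC against myc-/- siCtrl in the 6-library set (filled circles) and for myc-/- + MYC siCtrl against myc-/- in the 12-library set (open squares), coloured by polymerase. Dotted lines mark a fold of 1.5. Polr1a, Polr1b, Polr1c and Polr1e lie at 0.35 or above in both sets, and Polr2b, Polr2g, Polr2l and Polr2m lie below 0 in both.

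**Figure D2:**
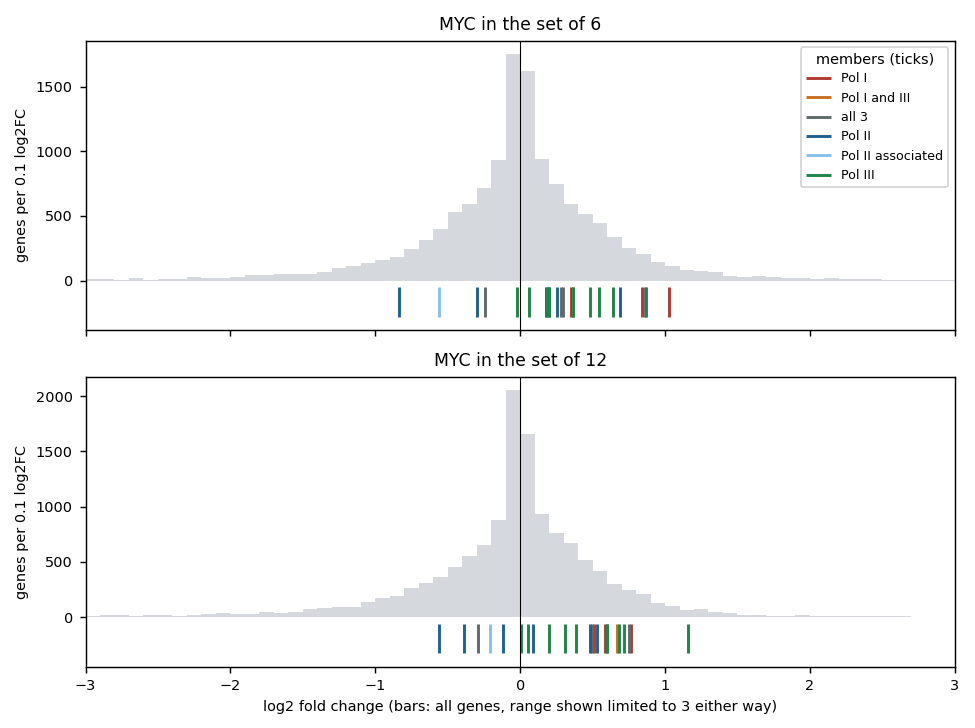
Histograms of the limma log2 fold changes of all 13188 genes (bars, genes per bin of 0.1) in both MYC comparisons, with the 24 polymerase genes as coloured ticks below. The range drawn is limited to 3 either way, and 19 of the 24 ticks lie above 0 in each panel.

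Among Pol I genes, Polr1b and Polr1e rose in both sets, and Polr1a stayed under the fold cutoff. Their median log2FC was 0.84 in the 6-library set and 0.59 in the 12-library set. Polr1b codes for the second-largest catalytic subunit. Its log2 values were 11.99, 11.96 and 11.98 in myc-/- siCtrl cells and 12.82, 13.07 and 13.11 in myc-/- + MYC cells. In the 12-library set they were 13.47, 13.35 and 13.36 in myc-/- cells and 14.17, 14.19 and 14.12 in myc-/- + MYC siCtrl cells. The groups did not overlap in either set, which held for 78.8% of all genes in the 6-library set and 70.5% in the 12-library set. Polr1b had the largest log2FC of the 24 members in the 6-library set, 1.02 (SE 0.0632, adjusted p = 4.39e-08, limma), a 2.03-fold higher level. Its log2FC was 0.77 in the 12-library set (SE 0.0415, adjusted p = 1.84e-05, limma).

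Polr1e codes for PAF53, a subunit that acts with a partner much as an initiation factor built into the enzyme. Its values were 10.58, 10.60 and 10.52 in myc-/- siCtrl cells and 11.29, 11.52 and 11.42 in myc-/- + MYC cells, a log2FC of 0.84 (SE 0.0581, adjusted p = 1.13e-07, limma). They were 11.79, 11.86 and 11.77 in myc-/- cells and 12.39, 12.38 and 12.42 in myc-/- + MYC siCtrl cells, giving a log2FC of 0.59 (SE 0.0359, adjusted p = 3.11e-05, limma). The MYC-labelled libraries were the higher ones in both sets, but the call in the 12-library set sits at the fold cutoff: the log2FC was 0.575 without myc-/- + MYC siCtrl replicate 3, 0.579 without myc-/- replicate 1 and 0.568 without myc-/- replicate 3. Polr1a, the largest catalytic subunit, had log2FC of 0.35 and 0.51 (adjusted p = 1.37e-04 and 0.00279, limma), below the fold cutoff. After quantile normalization it was called in the 12-library set.

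Polr1c, which forms the assembly platform of Pol I and Pol III, was at 11.96, 12.02 and 11.99 in myc-/- siCtrl cells and 12.29, 12.40 and 12.37 in myc-/- + MYC cells. The log2FC was 0.37 (SE 0.0391, adjusted p = 5.24e-06, limma), below the fold cutoff. In the 12-library set it was at 12.63, 12.76 and 12.65 in myc-/- cells and 13.31, 13.35 and 13.38 in myc-/- + MYC siCtrl cells, and rose by 0.67 (SE 0.0425, adjusted p = 3.65e-05, limma). Its larger log2FC in the 12-library set, a difference of 0.30 (SE 0.0628, adjusted p = 8.46e-04, limma), was below the fold cutoff. The partner of Polr1c, Polr1d, is listed under the older symbol Rpo1-3, which was looked up after the table was seen. Its log2FC was 0.33 and 0.34, below the fold cutoff in both sets.

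**Figure D3:**
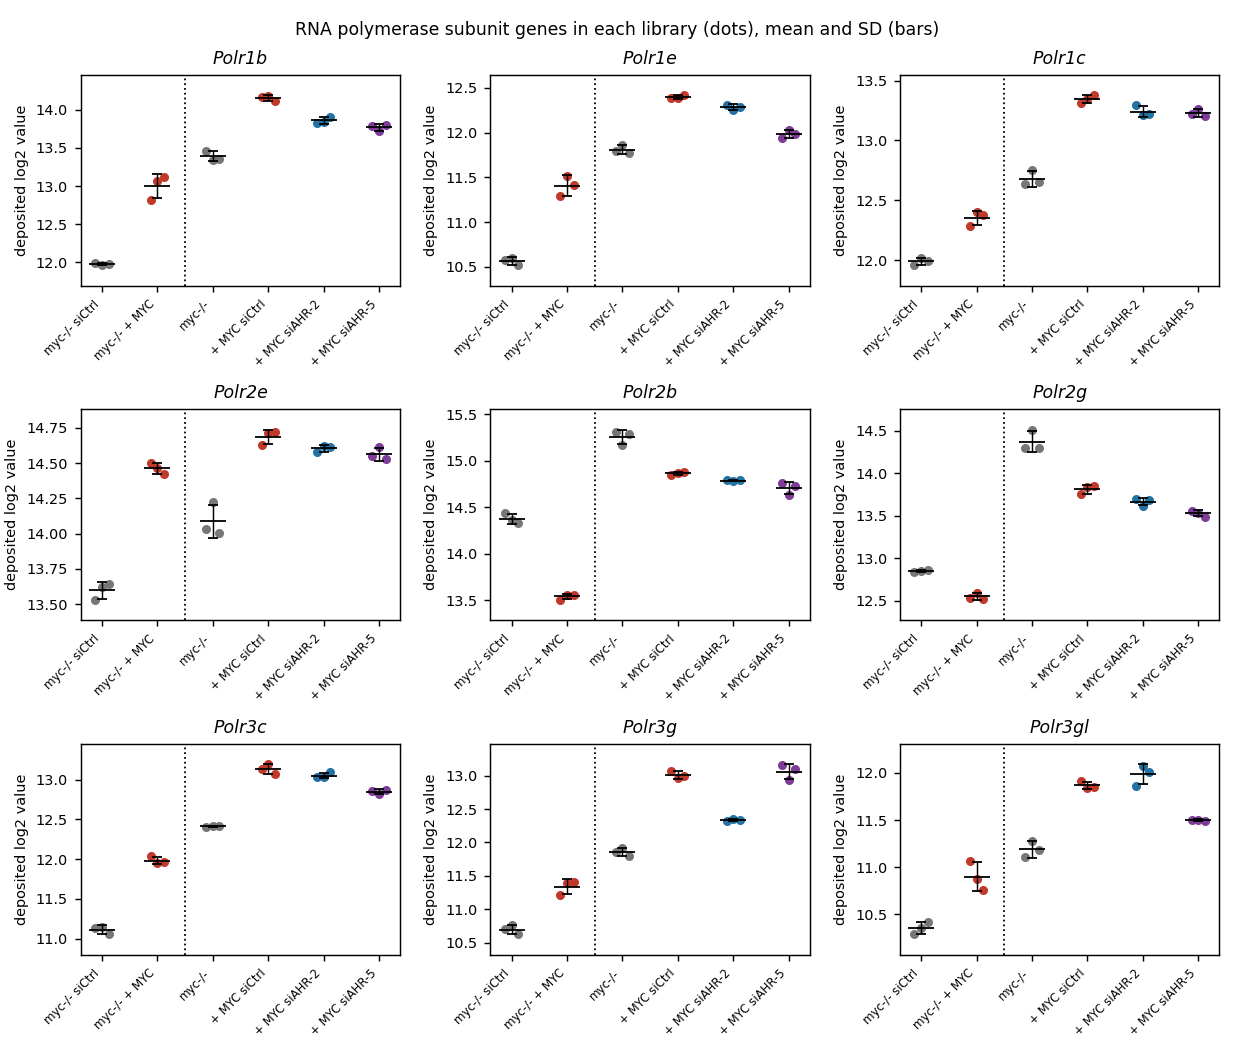
Deposited log2 value (vertical axis, a range of its own in each panel) of 9 polymerase genes in each of the 18 libraries (dots) with the mean and SD of each group of 3 (bars). The dotted line separates the 6-library set from the 12-library set, whose scales differ. Polr1b, Polr1e, Polr1c, Polr2e, Polr3c, Polr3g and Polr3gl are higher in the MYC-labelled libraries (red) than in the cells without MYC (grey) of the same set, and Polr2b and Polr2g are lower.

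The 4 genes shared by all 3 enzymes had a median log2FC of 0.29 in the 6-library set and 0.55 in the 12-library set, and differed in sign. Polr2e, which codes for RPB5 at the downstream jaw of the enzyme, was at 13.53, 13.63 and 13.64 in myc-/- siCtrl cells and 14.50, 14.46 and 14.42 in myc-/- + MYC cells. It rose by 0.86 (SE 0.036, adjusted p = 1.61e-09, limma). In the 12-library set it was at 14.03, 14.22 and 14.01 in myc-/- cells and 14.63, 14.71 and 14.72 in myc-/- + MYC siCtrl cells, giving a log2FC of 0.60 (SE 0.0656, adjusted p = 3.77e-04, limma). That call was also at the cutoff, and the log2FC was 0.581 without myc-/- + MYC siCtrl replicate 3, 0.570 without myc-/- replicate 1 and 0.559 without myc-/- replicate 3.

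Polr2k, which codes for the small zinc-binding subunit RPB12, was at 11.74, 11.94 and 11.68 in myc-/- cells and 12.53, 12.52 and 12.56 in myc-/- + MYC siCtrl cells. It rose by 0.75 (SE 0.0697, adjusted p = 1.84e-04, limma) in this set, and its log2FC in the 6-library set was 0.30 (adjusted p = 1.08e-04, limma), below the fold cutoff. Polr2f, coding for RPB6, had log2FC of 0.28 and 0.50 (adjusted p = 3.95e-05 and 9.57e-04, limma), both below the cutoff. Polr2l, coding for RPB10, went the other way in sign, with log2FC of -0.25 and -0.29 (adjusted p = 0.00430 and 0.0255, limma), also below the cutoff. Its values in cells without and with MYC were 10.18 to 10.40 against 10.01 to 10.12 in the 6-library set and 10.29 to 10.55 against 10.01 to 10.14 in the 12-library set.

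The median log2FC of the genes of Pol II only was 0.19 in the 6-library set, with 1 of 6 called higher and 1 called lower (12.5% and 14.3% of all genes), and -0.02 in the 12-library set, with 0 of 6 called by limma (5 had an unadjusted p under 0.05, as did 8875 of all 13188 genes). Without myc-/- replicate 1 or 3, Polr2g passed the cutoffs as lower (log2FC -0.59 each), and without myc-/- replicate 2, Polr2d passed as higher (0.60). Polr2b, the second-largest catalytic subunit RPB2, was at 14.44, 14.37 and 14.33 in myc-/- siCtrl cells and 13.50, 13.56 and 13.56 in myc-/- + MYC cells. It was the member called lower, falling by 0.84 on the log2 scale (SE 0.034, adjusted p = 1.25e-09, limma). In the 12-library set it was at 15.31, 15.17 and 15.29 in myc-/- cells and 14.85, 14.87 and 14.88 in myc-/- + MYC siCtrl cells, giving a log2FC of -0.39 (SE 0.0443, adjusted p = 4.41e-04, limma), below the fold cutoff, and of -0.20 after quantile normalization. Polr2b thus had the opposite sign to Polr1b, its counterpart in Pol I, in both sets.

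Polr2c, which with Polr2j forms the assembly platform of Pol II, was at 11.62, 11.61 and 11.58 in myc-/- siCtrl cells and 12.27, 12.32 and 12.28 in myc-/- + MYC cells. It rose by 0.69 (SE 0.0343, adjusted p = 7.31e-09, limma), and its log2FC was 0.48 in the 12-library set (SE 0.0512, adjusted p = 3.32e-04, limma), below the fold cutoff. Polr2j had log2FC of 0.20 and 0.09 (adjusted p = 2.53e-04 and 0.343, limma). The stalk subunits Polr2d (RPB4) and Polr2g (RPB7) pair in the enzyme but had log2FC of opposite sign. Polr2d had log2FC of 0.18 and 0.53, and Polr2g of -0.30 and -0.56, all below the cutoff with limma adjusted p of at most 8.03e-04. Polr2g was at 14.30, 14.51 and 14.29 in myc-/- cells and 13.75, 13.83 and 13.85 in myc-/- + MYC siCtrl cells. Polr2i, coding for RPB9, had log2FC of 0.26 and -0.12 (adjusted p = 0.00178 and 0.0565, limma), and in the 12-library set -0.08 after median centring and -0.01 after quantile normalization. Its level was the lowest of the members, with group means from 7.68 to 8.09, and changes at low values may be understated.

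Polr2m codes for GDOWN1, a protein that binds Pol II and limits its pairing with initiation factors. It was at 14.48, 14.50 and 14.50 in myc-/- siCtrl cells and 13.90, 13.95 and 13.95 in myc-/- + MYC cells. The log2FC of -0.56 (SE 0.0279, adjusted p = 6.94e-09, limma) was just under the fold cutoff, and the gene was called lower after median centring (-0.60) and had a log2FC of -0.34 after quantile normalization. In the 12-library set the log2FC was -0.21 (adjusted p = 0.00196, limma) as deposited and -0.00 after quantile normalization.

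Of the 9 Pol III genes, 8 had a log2FC above 0 in the 6-library set and 9 in the 12-library set, with medians of 0.37 and 0.38. Among all 13188 genes, 6441 and 6334 were above 0. Of these 9, 2 were called higher in the 6-library set and 4 in the 12-library set, and 0 were called lower in either (all genes, 12.5% and 10.8% higher, 14.3% and 14.7% lower). The called genes, Polr3c, Polr3f, Polr3g and Polr3gl, code for the subunits RPC3, RPC6 and the 2 forms of RPC7, a subcomplex that is particular to Pol III and takes part in opening the promoter. RPC3 (Polr3c) was at 11.14, 11.15 and 11.06 in myc-/- siCtrl cells and 12.04, 11.95 and 11.96 in myc-/- + MYC cells, and rose by 0.87 (SE 0.0429, adjusted p = 6.73e-09, limma). It was at 12.40, 12.41 and 12.42 in myc-/- cells and 13.13, 13.19 and 13.06 in myc-/- + MYC siCtrl cells, and rose by 0.72 (SE 0.039, adjusted p = 1.85e-05, limma).

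Polr3g, coding for RPC7 alpha, had the largest log2FC of all members in the 12-library set. It was at 11.85, 11.92 and 11.79 in myc-/- cells and 13.07, 12.96 and 13.00 in myc-/- + MYC siCtrl cells, giving a log2FC of 1.16 (SE 0.0466, adjusted p = 5.91e-06, limma) and a 2.23-fold higher level. In the 6-library set it was at 10.70, 10.77 and 10.63 in myc-/- siCtrl cells and 11.21, 11.40 and 11.41 in myc-/- + MYC cells, and rose by 0.64 (SE 0.0602, adjusted p = 1.67e-06, limma). Its other form, Polr3gl (RPC7 beta), was at 11.11, 11.28 and 11.18 in myc-/- cells and 11.91, 11.84 and 11.85 in myc-/- + MYC siCtrl cells, and rose by 0.68 (SE 0.0549, adjusted p = 9.87e-05, limma). In the 6-library set Polr3gl had a log2FC of 0.54 (adjusted p = 3.32e-05, limma), below the fold cutoff, and of 0.61 without myc-/- + MYC replicate 3, which passed it. Both forms of the subunit were thus higher in the MYC-labelled libraries of both sets.

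Polr3f, coding for RPC6, was at 11.81, 11.85 and 11.84 in myc-/- cells and 12.47, 12.39 and 12.44 in myc-/- + MYC siCtrl cells, giving a log2FC of 0.60 (SE 0.0335, adjusted p = 2.1e-05, limma), and of 0.582 without myc-/- + MYC siCtrl replicate 1, which ends the call. Its log2FC in the 6-library set was 0.48 (adjusted p = 7.58e-05, limma). The other 5 Pol III genes were below the fold cutoff. Polr3k, which takes part in termination, had log2FC of 0.18 and 0.20. Polr3b, the second-largest catalytic subunit, had log2FC of 0.06 and 0.38 (adjusted p = 0.433 and 5.29e-04, limma). In the 6-library set its groups overlapped, with 12.42, 12.67 and 12.75 in myc-/- + MYC cells against 12.55 to 12.56 in myc-/- siCtrl cells. Of the paired subunits RPC4 and RPC5, Polr3d had log2FC of 0.20 and 0.01 (adjusted p = 0.00261 and 0.924, limma) and Polr3e of -0.02 and 0.05. For Polr3e the groups overlapped in both sets.

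Promoters of the members were read from RefSeq promoter sequences (rat build GRCr8, 250 bases before to 50 after each start site), which matched 20 of the 24 by symbol. Polr2c, Polr2k and Polr3d were among those not matched. The E-box CACGTG, which reads the same on both strands, was in 4 of the 20 (20.0%), compared with 2148 of 33469 promoters (6.42%) and 876 of 9842 promoters of genes in the expression table (8.90%). These 4 are shown because they hold the E-box, with the E-box in capitals, each on the strand of its gene. The first base of the E-box lies 31 bases before the start site in Polr2f, 209 in Polr3c, 1 in Polr3e and 237 in Polr3g.
Polr2f, chr7:112592976-112593095, plus strand: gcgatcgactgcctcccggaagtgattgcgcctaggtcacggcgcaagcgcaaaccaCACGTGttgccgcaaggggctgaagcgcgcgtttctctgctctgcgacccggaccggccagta
Polr3c, chr2:186951093-186951212, minus strand: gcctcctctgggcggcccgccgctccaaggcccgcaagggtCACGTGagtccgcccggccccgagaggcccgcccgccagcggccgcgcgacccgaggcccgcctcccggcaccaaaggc
Polr3e, chr1:184897357-184897464, plus strand: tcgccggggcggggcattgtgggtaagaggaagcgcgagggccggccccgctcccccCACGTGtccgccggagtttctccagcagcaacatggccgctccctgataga
Polr3g, chr2:13721933-13722052, minus strand: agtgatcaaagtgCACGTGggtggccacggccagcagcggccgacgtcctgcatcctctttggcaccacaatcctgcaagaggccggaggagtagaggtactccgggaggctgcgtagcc

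Of these 4 genes, Polr3c and Polr3g were called higher in both sets, Polr2f was below the fold cutoff in both, and Polr3e had overlapping groups in both. Genes with no E-box in this window, such as Polr1b and Polr2e, were also called in both. The variant CACGCG, searched on both strands (its reverse complement is CGCGTG), was in 6 of the 20 promoters (30.0%), those of Polr1c, Polr1e, Polr2e, Polr2f, Polr3b and Polr3k, compared with 8.50% of all promoters and 15.5% of those of genes in the table. The median GC content of the window was 61.7% for the members and 60.0% for the genes in the table. The matches are descriptions of sequence only.

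The MYC effects of the 2 sets were compared in one limma fit of 12 libraries, as the log2FC in the 12-library set minus that in the 6-library set. The siCtrl label is on the side without MYC in the 6-library set and on the MYC side in the 12-library set, and the scales differ, so the difference holds these too and they cannot be told apart. Of the 24 members, 0 were called, beside 16.5% of all genes, and 16 members had an unadjusted p under 0.05, as did 7862 of all 13188 genes. With an adjusted p below 0.05 and no fold cutoff, 8 members had a larger and 7 a smaller log2FC in the 12-library set (24.8% and 30.1% of all genes). The largest difference was that of Polr3g, 0.51 (SE 0.0841, adjusted p = 1.10e-04, limma), which was called after median centring. Polr2k and Polr2b followed with a difference of 0.45 each (adjusted p = 3.15e-04 and 1.63e-05, limma). The largest difference in the other direction was that of Polr2i, -0.38 (adjusted p = 7.63e-04, limma).

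The siRNAs against AHR were each compared with siCtrl in myc-/- + MYC cells. These comparisons share the 3 siCtrl libraries with each other and with the MYC comparison of the 12-library set, so that their signs are not independent of one another. Each siRNA called 1 of the 24 members, and the genes were different, Polr3g with siAHR-2 (beside 0.47% of all genes called) and Polr2d with siAHR-5 (beside 2.33%). The median log2FC of the members was -0.10 with siAHR-2 and -0.26 with siAHR-5, against 0.00 and 0.01 for all genes. In either comparison 19 of the 24 members were below 0, beside 6145 (siAHR-2) and 5365 (siAHR-5) of all 13188 genes. With an adjusted p below 0.05 and no fold cutoff, 2 members were higher and 12 lower with siAHR-2 (13.7% and 15.5% of all genes), and 0 were higher and 15 lower with siAHR-5 (21.1% and 18.1%). The summed fibroblast markers were lower with both siRNAs, 19.98 to 20.02 with siAHR-2 and 19.94 to 19.96 with siAHR-5 against 20.21 to 20.24 with siCtrl, and the sum of 3 endothelial markers was 7.74 to 7.88 and 7.83 to 8.02 against 7.68 to 7.75 (log2 of the sum). The leukocyte sum was 8.15 to 8.22 with siAHR-2 and 7.94 to 8.35 with siAHR-5 against 7.93 to 8.11, and the epithelial sums overlapped. Of the 8 fibroblast markers, 0 were called with siAHR-2, 1 was called higher with siAHR-5 (Thy1, log2FC 0.75) and 2 were called higher between the siRNAs, and 0 of 3 endothelial markers were called in any of these comparisons. By sign, 3 of the 8 fibroblast markers had a log2FC above 0 with siAHR-2 and 6 with siAHR-5 (medians -0.06 and 0.06), although the sums were lower. The part of these shifts in the siRNA results was not tested.

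**Figure D4:**
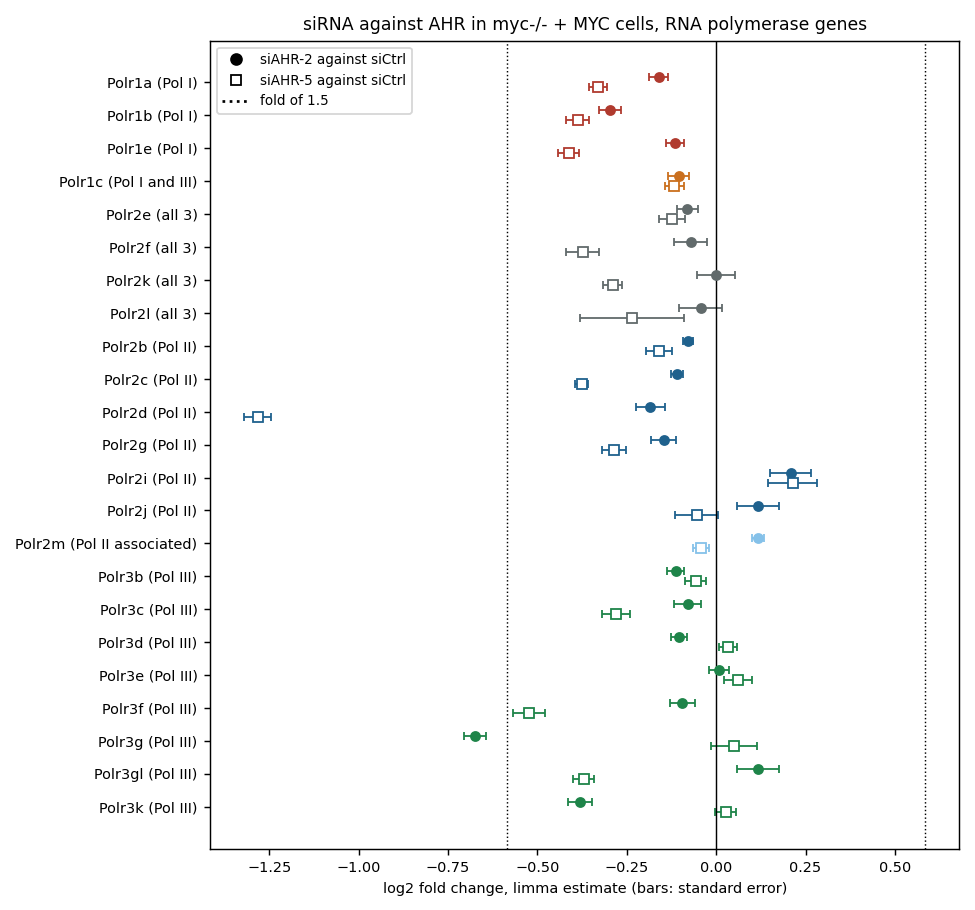
Limma log2 fold change (horizontal axis, bars are standard errors) of the polymerase genes named in the text for siAHR-2 (filled circles) and siAHR-5 (open squares), each against siCtrl in myc-/- + MYC cells. Dotted lines mark a fold of 1.5. Polr3g with siAHR-2 (-0.68) and Polr2d with siAHR-5 (-1.28) are the points beyond them.

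With siAHR-2, Polr3g was at 12.32, 12.35 and 12.33, and with siCtrl at 13.07, 12.96 and 13.00. It fell by 0.68 on the log2 scale (SE 0.0308, adjusted p = 3.85e-04, limma) and the groups did not overlap, as for 43.3% of all genes. With siAHR-5 it was at 13.15, 12.93 and 13.09, overlapping siCtrl, and its log2FC was 0.05 (SE 0.0641, adjusted p = 0.598, limma). Tested directly, siAHR-5 against siAHR-2, Polr3g was 0.72 higher (SE 0.0589, adjusted p = 5.64e-04, limma).

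Polr2d, the stalk subunit RPB4, was at 11.55, 11.59 and 11.52 with siAHR-5, at 12.89, 12.83 and 12.78 with siCtrl, and at 12.72, 12.62 and 12.61 with siAHR-2. All 3 siAHR-5 libraries were also below the 3 myc-/- libraries of the same set, at 12.26, 12.45 and 12.22. Polr2d fell by 1.28 on the log2 scale with siAHR-5 (SE 0.037, adjusted p = 1.13e-04, limma), to 0.411 of the siCtrl level, and its log2FC was -0.18 with siAHR-2 (SE 0.0409, adjusted p = 0.0236, limma). Between siAHR-5 and siAHR-2 it differed by -1.10 (SE 0.0375, adjusted p = 6.52e-05, limma). Its stalk partner Polr2g had log2FC of -0.15 with siAHR-2 and -0.29 with siAHR-5, below the cutoff. Polr2d and Polr3g were the 2 members called between the siRNAs, beside 2.18% of all genes.

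**Figure D5:**
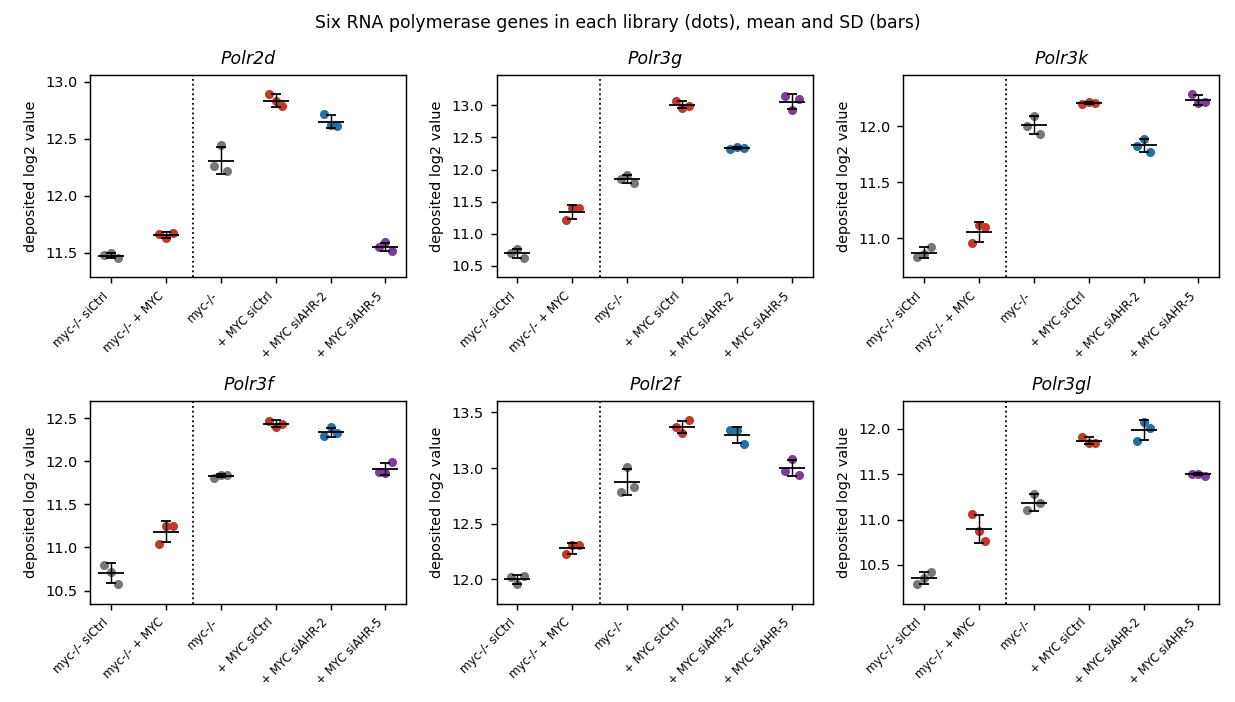
Deposited log2 value (vertical axis, a range of its own in each panel) of Polr2d, Polr3g, Polr3k, Polr3f, Polr2f and Polr3gl in each of the 18 libraries (dots) with the mean and SD of each group of 3 (bars). The dotted line separates the 6-library set from the 12-library set. Polr2d is lowest of the 12-library set with siAHR-5 (purple, 11.52 to 11.59), and Polr3g with siAHR-2 (blue, 12.32 to 12.35) lies below siCtrl (red, 12.96 to 13.07).

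The other members were below the fold cutoff with both siRNAs. With an adjusted p below 0.05 and no fold cutoff, 3 members were higher and 13 lower with siAHR-5 than with siAHR-2 (22.1% and 17% of all genes). Polr3k was at 11.83, 11.89 and 11.77 with siAHR-2, at 12.20, 12.22 and 12.21 with siCtrl and at 12.29, 12.21 and 12.22 with siAHR-5. The siAHR-2 libraries were the low ones, with a log2FC of -0.38 (adjusted p = 0.00137, limma) against 0.03 (adjusted p = 0.524, limma), and the difference between the siRNAs was 0.41 (adjusted p = 0.00100, limma). Polr3f and Polr3gl had the reverse order, with log2FC of -0.09 and 0.12 under siAHR-2 and of -0.52 and -0.37 under siAHR-5. Between siAHR-5 and siAHR-2, Polr3f differed by -0.43 (adjusted p = 0.00143, limma) and Polr3gl by -0.49 (adjusted p = 0.00179, limma). Pol III genes thus differed from one another in which siRNA gave the lower level.

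Polr1a, Polr1b and Polr1e were lower with both siRNAs, by small amounts. Polr1b had log2FC of -0.30 and -0.39 (adjusted p = 0.00218 and 7.20e-04, limma), Polr1a of -0.16 and -0.33 (adjusted p = 0.00855 and 6.24e-04, limma), and Polr1e of -0.12 and -0.41 (adjusted p = 0.0198 and 5.57e-04, limma). None of these 3 reached a fold of 1.5. Polr1c had log2FC of -0.11 and -0.12 (adjusted p = 0.0504 and 0.0207, limma). Of 3 further Pol I subunits listed under other symbols (Twistnb, Cd3eap and Znrd1), 2 were above 0 with siAHR-2 and 0 with siAHR-5. Among the shared subunits, Polr2f had log2FC of -0.07 and -0.37 and Polr2k of -0.00 and -0.29, and the difference between the siRNAs had a limma adjusted p of 0.00670 for Polr2f and 0.0102 for Polr2k. Polr2i had a log2FC of 0.21 with each siRNA as deposited (adjusted p = 0.0452 and 0.0567, limma), and of 0.17 with siAHR-2 and 0.06 with siAHR-5 after quantile normalization.

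Genes that work with the polymerases were taken from lists of factors, which were chosen with earlier results of these data known. List genes named with their own values for the MYC comparisons were those called in both sets, and so were picked by their change. Ttf1, Cdk7, Supt4a and Snapc4 of these lists were not analysed here. The counts are to be read beside the shares of all genes called, 12.5% higher and 14.3% lower in the 6-library set and 10.8% and 14.7% in the 12-library set. Besides Rpo1-3, given above and called in neither set, the Pol I subunits Twistnb, Cd3eap and Znrd1 are listed under other symbols and had 1 of 3 called higher in the 6-library set, and 1 higher and 1 lower in the 12-library set. Twistnb (RPA43) rose in both, by 0.68 and 0.86, and the lowest log2FC of the 3 was -0.27 and -0.61. The Pol III subunit Crcp was called in neither. Of 6 Pol I initiation factors (median log2FC 0.66 and 0.62), 3 were called higher in each set and 0 lower, and they were the same genes, Taf1d (1.68 and 1.38), Taf1c (1.06 and 0.66) and Taf1a (0.82 and 0.89), subunits of the SL1 complex that brings Pol I to the ribosomal RNA promoter. Of 15 Pol III initiation factors and regulators (medians 0.18 and 0.24), 2 were called higher in the 6-library set and 4 in the 12-library set, with 0 lower in either. Those called in both were Gtf3c6 (1.16 in each), a TFIIIC subunit, and Maf1 (0.69 and 0.71), a repressor of Pol III.

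Beside the same shares of all genes, of 16 Pol II general transcription factors (medians 0.25 and 0.32), 2 were called higher in each set and 0 lower, and the TFIIH subunit Gtf2h2 was called in both (0.62 and 0.72). Of 13 Pol II elongation factors (medians 0.13 and 0.24), 0 were higher and 1 lower in the 6-library set, and 2 were higher and 0 lower in the 12-library set. Of 8 polymerase assembly factors (medians 0.03 and 0.22), 0 and 1 were called, and the TATA-binding protein gene Tbp was called in neither. Of 5 genes of mitochondrial transcription (medians 0.25 and 0.28), 2 were called higher in each set and 0 lower, the mitochondrial RNA polymerase Polrmt (0.78 and 0.59) and its elongation factor Tefm (1.22 and 0.70). All genes named here with values passed limma's adjusted p of 0.01 and the fold cutoff. For the difference of the MYC effects 1 gene of these lists was called (16.5% of all genes), Rrn3 (0.69), a Pol I initiation factor, named after its value was seen. With siAHR-2 these lists had 0 genes called (0.47% of all genes), and with siAHR-5 2 genes (2.33%), Gtf2h1 (-0.65) and Gtf3c3 (-0.67), both lower, named here after their values were seen.

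For 7 members the GRCr8 gene table names at least 1 pseudogene (Polr2e, Polr2k, Polr2l, Polr2m, Polr3d, Polr3f and Polr3g). Reads of near-identical copies could be split or shared by the counting, so the values of these genes are less certain.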

How the data were processed

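RNA-seq was measured in 18 libraries of HO15.19 rat fibroblasts. Groups and replicate numbers came from the sample labels, and 0 value columns were left without a sample. Per the paper's methods and the processing notes, the authors assessed read quality (NGS-QC-Toolkit), aligned to rn6 using HISAT2 2.1.0, filtered out genes under 10 reads in total and applied DESeq2 normalization. The counter and annotation are not given in the sources used here. The authors deposited log2 values for 13188 genes, called log CPM, which are not CPM: on the linear scale, the library totals are between 86.3 and 161 times what CPM would. The transformation is not known, so changes of genes with low values may be understated, and depth and the precision it gives are unknown.

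Each comparison was fitted to its own libraries with limma 3.58.1 in R 4.3.3 (lmFit, eBayes with trend, no replicate block) over all genes, with Benjamini-Hochberg adjustment over all genes. Calls needed a fold of at least 1.5 and an adjusted p of at most 0.01. The fits were tested on simulated data. The number of libraries limits the precision. Alternatives were the cutoff, all groups in one fit, no trend, quantile normalization, median centring, a minimum mean log2 value of 1, a pseudocount of 1, the replicate block, and leaving out each library.

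All members are named but 1, which enters the counts and medians and is not reported here by itself. From the lists of factors, genes called in both MYC comparisons are named, at most 3 per list. Members, lists, motifs and cutoffs were chosen with earlier results of these data known. Promoters are from RefSeq, GRCr8, and plots used matplotlib 3.10.9 (Python 3.11.15).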

Additional observations from a re-analysis of the deposited data

Results flagged for a closer look

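Both genes called between the siRNAs against AHR stand out because their change with one siRNA differed from that with the other in a direct limma test. Polr2d was lower with siAHR-5 than with siAHR-2 by a log2FC of -1.10 (adjusted p = 6.52e-05, limma), a value that lay between -1.12 and -1.07 when single libraries were left out. Polr3g was higher with siAHR-5 than with siAHR-2 by a log2FC of 0.72 (adjusted p = 5.64e-04, limma), between 0.68 and 0.79 with each library left out. In both cases 3 of 3 libraries of one siRNA lay beyond all 3 of the other, which held for 49.5% of all genes. Both siRNAs lowered Ahr, by log2FC of -1.29 and -1.39, and for Ahr the difference between them was -0.11 (adjusted p = 0.211, limma). The Ahr values did not overlap either, at 11.76 to 11.95 with siAHR-5 and 11.97 to 12.03 with siAHR-2. The part of the Ahr level in the differences of Polr2d and Polr3g was not tested.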

How the results depend on the processing

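With an FDR below 0.05 and no fold cutoff, the numbers of members past the threshold were 22 and 20 for MYC in the 6-library and the 12-library set, 14 for siAHR-2, 15 for siAHR-5, 16 between the siRNAs and 15 for the difference of the MYC effects. Median centring gave 1 member for that difference, and 8 in the 6-library set. The replicate numbers were not taken as pairs: same-numbered libraries had deviations with a mean correlation from -0.03 to 0.10 over the 5 comparisons of 2 groups. Single correlations ran from -0.26 to 0.24, and with 3 libraries in a group they cannot show that the cultures were unpaired. The replicate block gave 7 and 9 members for MYC, 0 for siAHR-2, where Polr3g kept its log2FC of -0.68 with a limma adjusted p of 0.0126, the smallest of any member there, 1 for siAHR-5, 2 between the siRNAs and 0 for the difference. Leaving out single libraries gave numbers of 7 to 8 and 7 to 10 for MYC, and left 1, 1, 2 and 0 for the others. Over 20 called member results and 14 alternatives each, 272 of 280 values kept their direction and call and 8 lost the call with the same direction. These were Polr1e, Polr2e and Polr3f in the 12-library set, whose values without single libraries are given above, and Polr3g with siAHR-2 under the block. The FDR cutoff of 0.05 was applied to the same fit and could not end a call. The fit of all groups, the fit without trend and the block kept the log2FC, so they could end a call only through the adjusted p. The 272 thus include values that could not change. Among the members named, direction under rescaling changed only for values near 0, namely Polr3e for MYC in the 6-library set and for siAHR-2, Polr2m, Polr3d, Polr3g and Polr3k for siAHR-5, Polr2i between the siRNAs, and Polr2l for the difference of the MYC effects. Among all genes called with siAHR-5, 63.5% were higher as deposited and 45.9% after median centring, and for the difference of the MYC effects 41.3% and 52.6%. With siAHR-2 these shares were 33.9% and 22.1%. For MYC they were 46.7% as deposited and 51.7% after quantile normalization in the 6-library set, and 42.4% and 52.0% in the 12-library set.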
